A study of Homo sapiens with 6 samples.

Results

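NEAT1, MALAT1 and NORAD are long noncoding RNAs, and the question here was where FMR1, the fragile X protein, and its paralogs FXR1 and FXR2 were crosslinked on them. A binding site was taken as lying on a transcript when its midpoint fell inside the hg19 span of that transcript, on its strand. NEAT1 lies on chromosome 11 from 65190269 to 65213011 (plus strand, 22743 nt), MALAT1 on chromosome 11 from 65265233 to 65273940 (plus strand, 8708 nt), and NORAD, also called LINC00657, on chromosome 20 from 34633544 to 34638882 (minus strand, 5339 nt). Across 6 libraries the 3 transcripts held 188 of 464799 sites: 46 on NEAT1, 41 on MALAT1 and 101 on NORAD.

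The sites come from PAR-CLIP, in which 4-thiouridine built into cellular RNA is linked to bound protein by 365 nm light and the RNA recovered with the protein is sequenced. Stable FlpIn T-Rex HEK293 lines, an established human embryonic kidney line, carried FLAG-HA-tagged transgenes that were induced with 1 µg/ml doxycycline during 16 h with 100 µM 4-thiouridine. The light dose was 0.15 J per square cm, and RNase T1 was applied for 15 min at 22 °C, in all 6 libraries. The immunoprecipitated proteins were wild-type FMR1 isoform 1, wild-type FMR1 isoform 7, FMR1 isoform 1 with I304N, FMR1 isoform 7 with I304N, wild-type FXR1 and wild-type FXR2. I304N replaces 1 residue of a KH domain, the type of fold with which FMR1 holds RNA. All 6 lines thus express a tagged protein from an induced transgene, and cells without one are not among the samples. Each protein form had 1 library, so no value has a replicate error and no test was made. Lists ran from 9017 sites in FXR1 to 132219 in I304N isoform 1, and counts were therefore also given per 100000 sites of the list. Intervals are exact 95% intervals that cover counting error only, Clopper-Pearson for shares and scaled counts, and conditional on the summed count for ratios.

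As background, NEAT1 and MALAT1 stay in the nucleus. NEAT1 is the scaffold of paraspeckles, bodies that hold RNA-binding proteins such as NONO and SFPQ, and is made as a short form and as a long form that share their 5′ part. MALAT1 is among the most abundant noncoding RNAs of many cells and collects in nuclear speckles, beside sites of transcription and splicing. NORAD is mostly cytoplasmic, is abundant in many cells and is known for its part in keeping chromosome number stable. FMR1 is mostly a cytoplasmic protein that binds mRNAs and represses their translation, and it can enter the nucleus. The cell pellets were lysed with the detergent NP40 and only the cleared supernatant was used, per the labels' protocols; how much nuclear RNA it held is not given in the sources used here.

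The letters of the 3 RNAs were read from GENCODE 29, whose transcripts NEAT1-202, MALAT1-202 and NORAD-201 have 22743, 8708 and 5339 nt, the same lengths as the spans. That release is built on GRCh38, and no hg19 sequence was at hand, so the letters under single sites are not shown. FMR1 is known to prefer short elements of the kinds ACTG or ACTT and AGGA or TGGA (T stands for U). They were counted on the transcript strand with overlaps allowed. NEAT1 had 247 matches to ACTG or ACTT and 220 to AGGA or TGGA, which is 10.9 and 9.67 per kb. MALAT1 had 10.2 and 12.2 per kb, and NORAD had 8.80 and 13.1 per kb. Among 156 GENCODE lincRNA transcripts of at least 5 kb, each of which held all 4 motifs, the medians were 9.09 and 11.9 per kb, and 15.4% to 79.5% of them were as rich as these 3 transcripts or richer. The 3 transcripts were not removed from that set. Taken singly, the 4 motifs gave shares from 14.7% (ACTT in MALAT1) to 89.1% (ACTG in NORAD). The short FMR1 elements were thus at ordinary density in all 3 RNAs. The 60 nt stretch of each transcript with the most bases in the FMR1 elements is given below to show what they look like in these RNAs, with the elements in capitals and positions counted from the 5′ end. They were not matched to binding sites.
NEAT1-202, 322 to 381: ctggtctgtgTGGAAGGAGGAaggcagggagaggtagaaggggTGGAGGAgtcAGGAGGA
MALAT1-202, 2804 to 2863: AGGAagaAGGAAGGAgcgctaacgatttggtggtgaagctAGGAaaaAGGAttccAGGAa
NORAD-201, 926 to 985: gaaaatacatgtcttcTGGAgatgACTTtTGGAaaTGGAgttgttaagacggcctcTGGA

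NORAD was the transcript with sites in all 6 libraries, MALAT1 had sites in the 4 FMR1 libraries, and NEAT1 had sites in wild-type isoform 7 and I304N isoform 1 alone. NORAD had 34 sites in the list of wild-type isoform 1, 17 in that of wild-type isoform 7, 18 and 22 in those of isoforms 1 and 7 with I304N, 3 in that of FXR1 and 7 in that of FXR2. On MALAT1 the numbers in the same order were 14, 24, 2, 1, 0 and 0, and on NEAT1 they were 0, 42, 4, 0, 0 and 0. More sites can come from more RNA, from deeper sequencing or from more binding, and these cannot be told apart here. The wild-type isoform 7 list held 42 of the 46 NEAT1 sites and 24 of the 41 MALAT1 sites. All 188 sites lay on the strand of the transcript: the opposite strand of the spans held 0 sites in every library. Stretches as long as the span on either side held 0 sites in every library around MALAT1 and NORAD. The 22743 nt before NEAT1 held 1 site of wild-type isoform 7 and 5 and 2 sites of isoforms 1 and 7 with I304N, and those after it 0 in every library.

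**Figure D1:**
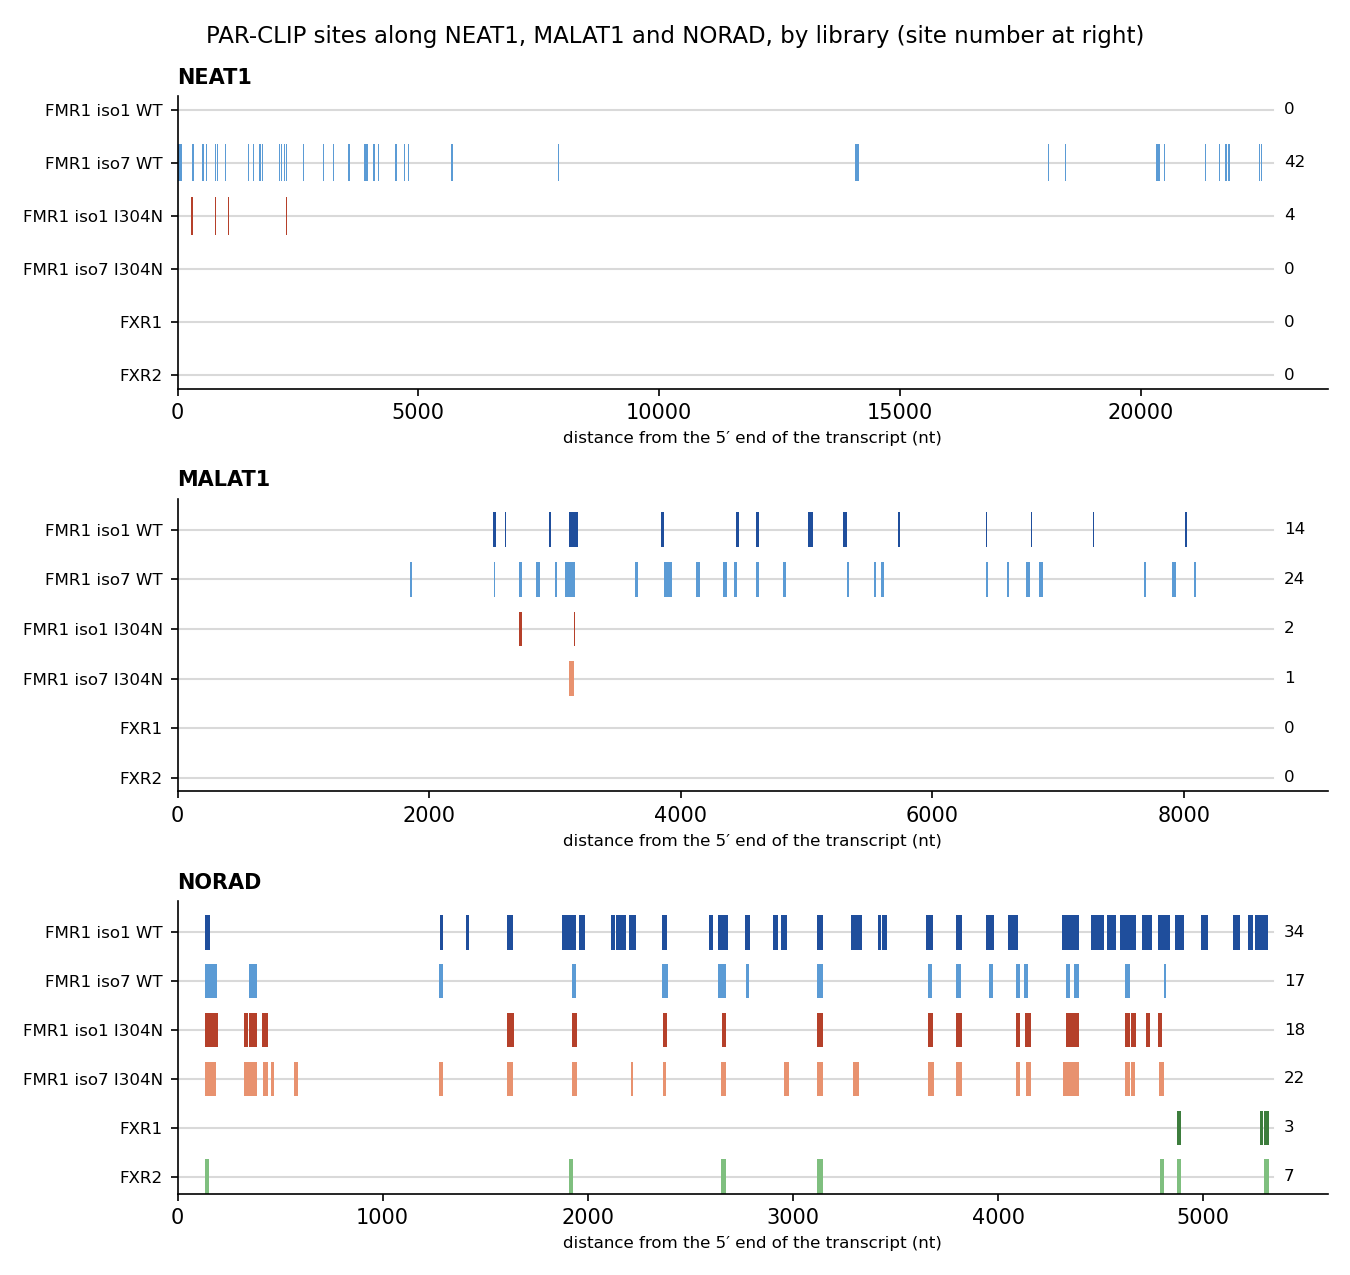
Position of each site (coloured bars; the horizontal axis is the distance from the 5′ end of the transcript in nt, and narrow sites are drawn slightly wider to be visible) on NEAT1, MALAT1 and NORAD, with 1 row per library and the number of sites at the right. Of the 46 NEAT1 sites 42 are in the wild-type isoform 7 row, most of them towards the 5′ end, while NORAD has sites in every row.

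Scaled to the list, the NORAD count in wild-type FMR1 was 27.9 per 100000 sites (19.3 to 39.0) for isoform 1 and 21.7 (12.6 to 34.7) for isoform 7. With I304N it was 13.6 (8.07 to 21.5) for isoform 1 and 24.8 (15.6 to 37.6) for isoform 7, and the paralogs gave 33.3 (6.86 to 97.2) for FXR1 and 20.3 (8.15 to 41.8) for FXR2. These intervals all overlapped, and neighbours in this order are not resolved. The MALAT1 scaled count was highest for wild-type isoform 7 with 30.6 (19.6 to 45.5), followed by wild-type isoform 1 with 11.5 (6.28 to 19.3), and was 1.51 (0.183 to 5.46) for isoform 1 and 1.13 (0.0286 to 6.29) for isoform 7 when they carried I304N. The intervals of the wild-type libraries do not overlap each other, that of wild-type isoform 1 barely meets the one of I304N isoform 7, and the I304N libraries are not separated. For NEAT1, wild-type isoform 7 had a scaled count of 53.5 (38.6 to 72.3), against 3.03 (0.824 to 7.75) for isoform 1 with I304N. A count of 0 allows up to 3 counts, which is 2.46 per 100000 for the list of wild-type isoform 1, 3.38 for I304N isoform 7, 8.69 for FXR2 and 33.3 for FXR1.

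**Figure D2:**
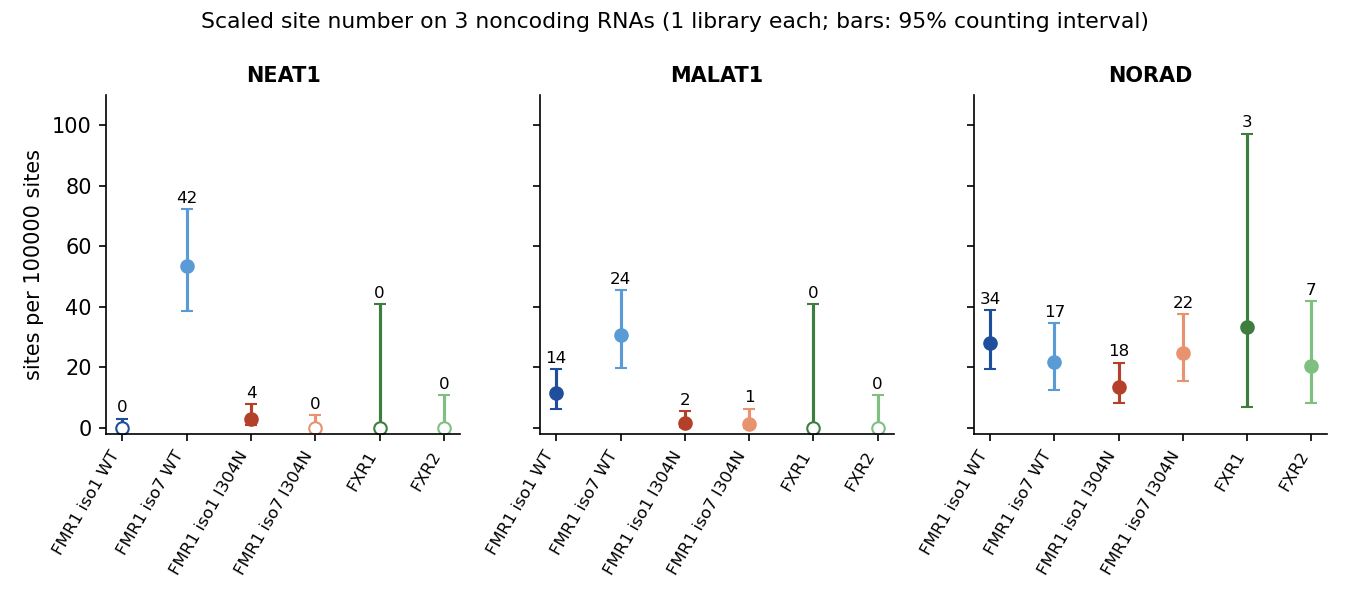
Sites per 100000 sites of the list (vertical axis) for each library, with exact 95% counting intervals as bars, the number of sites above each bar and open points for 0 sites. The NORAD intervals overlap across all 6 libraries, from 13.6 to 33.3 per 100000, whereas NEAT1 and MALAT1 are highest in wild-type isoform 7.

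Per length, NORAD was the densest of the 3 transcripts in every library. Per kb of transcript and 100000 sites, wild-type isoforms 1 and 7 had 5.22 and 4.06 NORAD sites, their I304N forms 2.55 and 4.65, FXR1 6.23 and FXR2 3.80. MALAT1 had 1.32, 3.51, 0.174 and 0.130 in the 4 FMR1 libraries in that order, and NEAT1 had 2.35 in wild-type isoform 7 and 0.133 in I304N isoform 1. In wild-type isoform 7 the 3 RNAs were thus within a factor of 2 of each other per kb, which leaves NORAD and MALAT1 unresolved there. Set beside strand-specific windows of 10 kb with at least 1 site, 0.508% of windows in wild-type isoform 1 and 0.598% in I304N isoform 7 had as many sites per 10 kb as NORAD or more. For I304N isoform 1 that share was 1.21% and for wild-type isoform 7 0.627%, with 3.11% for FXR2 and 6.02% for FXR1. For MALAT1 it was 0.911% in wild-type isoform 7 and 46.5% in I304N isoform 1, and for NEAT1 2.14% and 63.1% in the same libraries. These shares set a whole transcript beside windows that can also hold untranscribed sequence. Transcript counts were scaled to 10 kb for this, and NORAD and MALAT1 are shorter than that. In wild-type isoform 1, NORAD thus entered with 63.7 sites per 10 kb, although the 10 kb window around it held 34. Shares of windows with at least the unscaled NORAD or MALAT1 count would be larger and were not computed.

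The split of sites between the nuclear pair and cytoplasmic NORAD within 1 library does not depend on the length of the list. NORAD took 70.8% of the sites on the 3 transcripts in wild-type isoform 1 (34 of 48, 55.9 to 83.0), 75.0% in I304N isoform 1 (18 of 24, 53.3 to 90.2) and 95.7% in I304N isoform 7 (22 of 23, 78.1 to 99.9). In wild-type isoform 7 it took 20.5% (17 of 83, 12.4 to 30.8). In FXR2 it took 7 of 7 (59.0% to 100%) and in FXR1 3 of 3 (29.2% to 100%). Wild-type isoform 7 was the library in which nuclear sites outnumbered NORAD sites, and its interval did not overlap any other FMR1 interval. In numbers, it had 3.88 nuclear sites for each NORAD site, against 0.412 in wild-type isoform 1, an odds ratio of 9.23 (3.87 to 23.3).

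**Figure D3:**
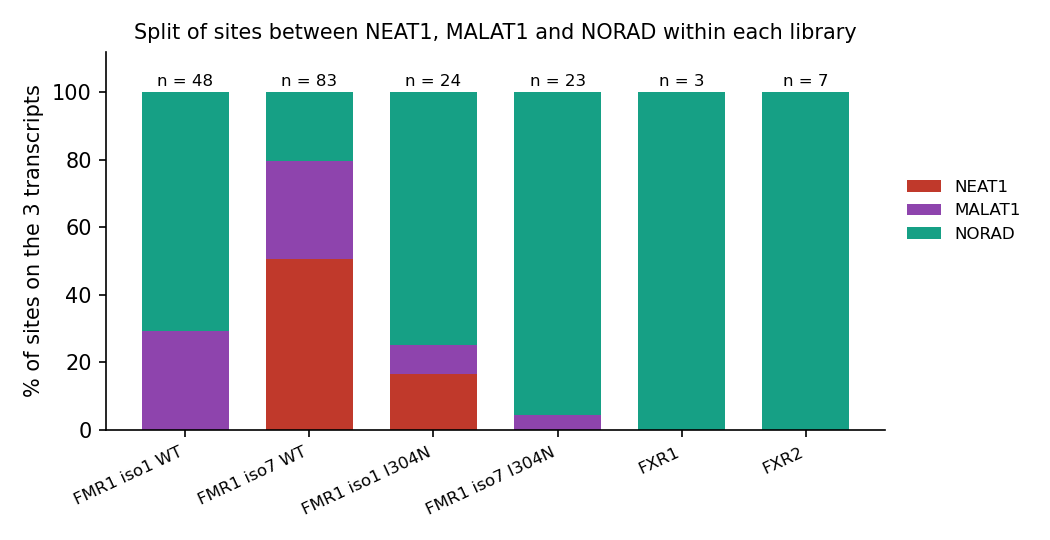
Share of the sites on the 3 transcripts (vertical axis, %) that lay on NEAT1, MALAT1 and NORAD within each library, with the number of sites above each bar. NORAD takes 20.5% in wild-type isoform 7 and 70.8% or more in the other 5 libraries.

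Isoform 7 was set beside isoform 1 in the wild type. NEAT1 was 21.7-fold denser in isoform 7 when 3 sites were counted in place of 0, with an exact lower limit of 16.9. MALAT1 was 2.66-fold denser (1.32 to 5.57). NORAD had a ratio of 0.777 (0.407 to 1.43), an interval that holds 1. Past a 2-fold difference, computed with a pseudocount of 1 per 100000, were NEAT1 and MALAT1, both higher in isoform 7. Of 10308 windows of 10 kb with a mean of at least 2 scaled sites, 19.2% were likewise at least 2-fold higher. That share was 7.06% with a pseudocount of 5 and 37.5% with median-of-ratios scaling. The 10 kb window that holds the 5′ part of NEAT1, from 65190001 to 65200000, had 29 sites for isoform 7 and 0 for isoform 1. Of 477 other windows with at least 20 sites in the isoform 7 library, 0 had no site in wild-type isoform 1, or 0%, which allows a share of up to 0.629%. Among these 477 windows, 1 on chromosome X (minus strand), from 112020001 to 112030000, had 1 site in isoform 1 and 32 in isoform 7. The minimum of 20 sites was chosen after the NEAT1 values were seen.

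**Figure D4:**
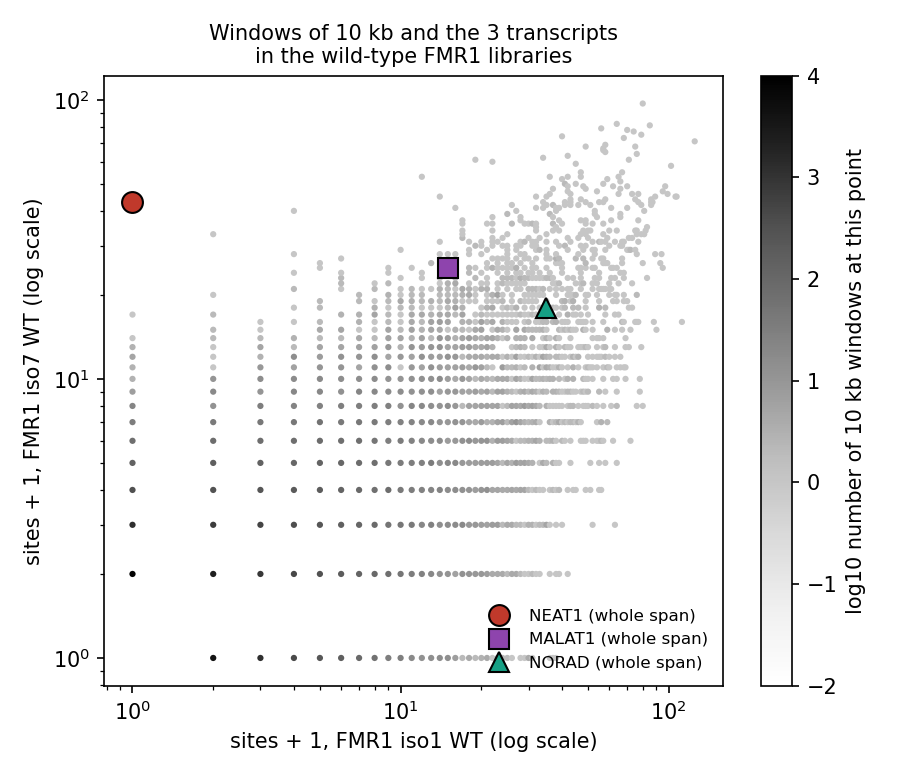
Windows of 10 kb outside the 3 spans (grey points, shaded by the number of windows) by their sites in wild-type isoform 1 and wild-type isoform 7, each plus 1 on log axes, with the whole spans of NEAT1, MALAT1 and NORAD as symbols. NEAT1, with 0 and 42 sites, lies above all windows without a site in isoform 1, and MALAT1 (14 and 24) and NORAD (34 and 17) lie within the cloud.

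Each I304N form was compared with its own wild-type isoform. In isoform 7, I304N had 0 NEAT1 sites against 42 in the wild type. That is 15.8-fold lower with 3 sites counted in place of 0 (exact lower limit 12.3). MALAT1 went from 24 sites to 1, a ratio of 0.0369 (0.000897 to 0.226), and NORAD from 17 to 22, a ratio of 1.15 (0.581 to 2.30). NEAT1 and MALAT1 were past 2-fold lower, beside 16.3% of 10269 windows (6.47% with a pseudocount of 5). Of the 477 windows with at least 20 sites in wild-type isoform 7, 2 (0.419%) had at most 1 site in I304N isoform 7. These were on chromosome X (minus strand) from 73050001 to 73060000, with 21 sites in the wild type and 1 with I304N, and from 112020001 to 112030000, with 32 and 0. In wild-type isoform 1 these windows had 23 and 1 sites, in I304N isoform 1 10 and 23, in FXR1 4 and 0, and in FXR2 6 and 3. The number of MALAT1 sites per NORAD site was 1.41 in the wild type and 0.0455 with I304N, an odds ratio of 29.6 (4.02 to 1334) that does not rest on list length.

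In isoform 1, MALAT1 had 14 sites in the wild type and 2 with I304N, which gives a ratio of 0.132 (0.0145 to 0.573), and NORAD had 34 and 18, with a ratio of 0.488 (0.260 to 0.889). MALAT1 was past 2-fold lower, as were 21.4% of 10904 windows (10.4% with a pseudocount of 5), and NORAD was just short of 2-fold with the pseudocount (log2 ratio -0.98). MALAT1 sites per NORAD site were 0.412 in the wild type and 0.111 with I304N, an odds ratio of 3.65 (0.710 to 36.6), so a lower MALAT1 count relative to NORAD was not resolved in isoform 1. NEAT1 had 4 sites with I304N and 0 without, a scaled mean below 2, and its interval starts at 0.609. Among the mutant forms, NORAD had a ratio of 1.82 (0.933 to 3.61) for isoform 7 over isoform 1, and MALAT1 had 1 against 2 sites.

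The size of the NORAD differences depended on how lists were scaled. Median-of-ratios factors over windows moved ratios computed without a pseudocount up by 0.70 on the log2 scale for I304N isoform 1 over wild-type isoform 1 and by 0.59 for wild-type isoform 7 over wild-type isoform 1. NORAD then had a ratio of 0.792 (0.421 to 1.44) in the first of these and of 1.17 (0.612 to 2.15) in the second, where its direction turned. The NORAD ratio of I304N isoform 7 to I304N isoform 1 became 2.02 (1.03 to 4.00), so that its interval no longer held 1. MALAT1 kept its direction, at 0.214 (0.0236 to 0.930) for I304N in isoform 1 and 4.00 (1.99 to 8.37) for isoform 7 over isoform 1 in the wild type.

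FXR1 and FXR2 had no site on NEAT1 or MALAT1. At the density of wild-type isoform 7, the FXR2 list would hold 18.5 NEAT1 sites and 10.6 MALAT1 sites. With 3 sites counted in place of 0, FXR2 was thus 6.16-fold lower on NEAT1 (exact lower limit 4.79). On MALAT1 it was 3.52-fold lower (exact lower limit 2.65). Both were past 2-fold lower, beside 19.6% of 10193 windows (41.9% with median-of-ratios scaling). Against wild-type isoform 1, with 14 MALAT1 sites, 3.96 would be expected in FXR2, and the upper limit of the ratio was 1.06. MALAT1 was past 2-fold lower there with the pseudocount, as were 20.3% of 9428 windows (10.1% with a pseudocount of 5), but the interval holds 1. The FXR1 list, at the density of wild-type isoform 7, would hold 4.82 NEAT1 sites. With 3 sites counted in place of its 0 it was 1.61-fold lower (exact lower limit 1.25). For MALAT1 it would hold 1.04 sites at the density of isoform 1 and 2.76 at that of isoform 7, so a difference was not detectable at this depth. On NORAD, FXR2 had a ratio to wild-type isoform 1 of 0.727 (0.272 to 1.67) and to wild-type isoform 7 of 0.936 (0.328 to 2.38), the latter with a log2 ratio of 0.17 without repeats. Those of FXR1 were 1.19 (0.234 to 3.79) and 1.54 (0.288 to 5.31), and their direction turned under median-of-ratios scaling (log2 ratios of -0.57 and -0.78). All 4 intervals hold 1.

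The 42 NEAT1 sites of wild-type isoform 7 were 12 to 34 nt wide (median 20.5) and covered 3.82% of the transcript. They were concentrated towards its 5′ end: 28 of them, 66.7% (50.5 to 80.4), lay in the first 6000 nt, which is 26.4% of the length. That is 4.67 sites per kb, against 0.836 per kb in the remaining 16.7 kb. The limit of 6000 nt was not fixed beforehand, so these values are a description only. With other limits, the first 3500 nt (15.4% of the length) held 19 of the 42 sites, or 45.2% (29.8 to 61.3). The first 11371 nt (50.0% of the length) held 29, or 69.0% (52.9 to 82.4). The first 1000 nt held 8 sites, and each of the next 4 stretches of 1000 nt held 4 or 5. After a site that ended at nt 7923 followed 6153 nt without one, and 9 sites lay beyond nt 20001, near the 3′ end that only the long form has. Of the 42 sites, 1 was marked as lying in a repeat. The 4 sites of I304N isoform 1 started at nt 297, 776, 1050 and 2257, all within the first 6000 nt. Of these, 3 overlapped a site of wild-type isoform 7 (75.0%, 19.4 to 99.4), beside 37.0% of the I304N isoform 1 list. Joined over libraries, the NEAT1 sites formed 43 regions, 39 of them in wild-type isoform 7 alone. Sites were joined on the 3 transcripts only, so no share of joined regions over the whole lists stands beside such numbers. By comparison, 48.5% of all sites in the wild-type isoform 7 list overlapped a site of wild-type isoform 1 and 49.8% one of I304N isoform 7, against 0 of 42 on NEAT1 (0% to 8.41%) for each. That follows from the lack of NEAT1 sites in those lists.

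MALAT1 sites began later in the transcript. Its first 2000 nt held 1 of the 41 sites, in wild-type isoform 7 at nt 1847, and the others were spread from nt 2510 to the 3′ part. Per 1000 nt, wild-type isoform 7 had between 2 and 5 sites from nt 2001 to 8000, and wild-type isoform 1 between 1 and 3. The wild-type isoform 1 sites were 12 to 73 nt wide (median 20) and covered 3.90% of the transcript, and those of wild-type isoform 7 were 10 to 57 nt wide (median 25) and covered 7.09%. Sites of both libraries met in few places: 5 of 14 sites of isoform 1 overlapped one of isoform 7 (35.7%, 12.8 to 64.9), beside 29.3% for its whole list. For isoform 7 it was 5 of 24 (20.8%, 7.13 to 42.2), beside 48.5% for its list.

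A single MALAT1 region was found in all 4 FMR1 libraries. It ran from 65268341 to 65268417 on chromosome 11, nt 3109 to 3185 of the transcript. It held the widest MALAT1 site of wild-type isoform 1 (73 nt), the single site of I304N isoform 7 (38 nt) and 1 of the 2 sites of I304N isoform 1 (14 nt). The other site of I304N isoform 1 overlapped one of wild-type isoform 7. All 3 MALAT1 sites of the I304N libraries were thus at places that wild-type isoform 7 also had. For I304N isoform 1 that is 2 of 2 (15.8% to 100%), beside 37.0% of its list. For I304N isoform 7 it is 1 of 1 (2.5% to 100%), beside 41.9%. Of the 33 MALAT1 regions, 18 were in wild-type isoform 7 alone and 9 in wild-type isoform 1 alone, again without a share over whole lists.

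More regions were found in several libraries on NORAD than on MALAT1 or NEAT1. How often joined regions are shared over the whole lists was not counted, so the region numbers have no background. Its 101 sites formed 39 regions, of which 11 were in all 4 FMR1 libraries and 5 of these also in FXR2, and 0 in all 6 libraries. Wild-type isoform 1 alone accounted for 13 regions, and wild-type isoform 7 had no region of its own. Of its 17 NORAD sites, 15 overlapped a site of wild-type isoform 1 (88.2%, 63.6 to 98.5), beside 48.5% of its whole list, and 15 one of I304N isoform 7, beside 49.8%. Of the 18 sites of I304N isoform 1, 17 overlapped one of I304N isoform 7 (94.4%, 72.7 to 99.9), beside 50.0% of its list. Of the 22 sites of I304N isoform 7, 17 overlapped wild-type isoform 1 (77.3%, 54.6 to 92.2), beside 42.6%. Of the 18 sites of I304N isoform 1, 14 overlapped wild-type isoform 1 (77.8%, beside 41.7%) and 12 wild-type isoform 7 (66.7%, beside 37.0%). Wild-type isoform 7 met 14 of the 22 sites of I304N isoform 7 (63.6%, beside 41.9%). In the directions given next the shares were nearer to or below those of the lists. I304N isoform 1 met 13 of the 17 sites of wild-type isoform 7 (76.5%, beside 66.4%). Of the 34 sites of wild-type isoform 1, 14 met one of wild-type isoform 7 (41.2%, beside 29.3%), 16 one of I304N isoform 7 (47.1%, beside 30.4%) and 13 one of I304N isoform 1 (38.2%, beside 44.6%). I304N isoform 1 met 16 of the 22 sites of I304N isoform 7 (72.7%, beside 75.9%). With sites wider than 40 nt left out, overlap with wild-type isoform 1 was 37.5% for wild-type isoform 7. It was 31.25% for I304N isoform 1 and 42.1% for I304N isoform 7, so many of these overlaps were with wide isoform 1 sites. The list shares were not recomputed with this limit, so the lower values have no background. On NORAD, wild-type isoform 1 sites were 38.8 nt wide on average (SD 18.2 across sites), against 29.5 nt over its list, and covered 24.7% of NORAD. The share covered was 7.96% for wild-type isoform 7, 9.93% and 12.1% for isoforms 1 and 7 with I304N, 1.18% for FXR1 and 2.90% for FXR2.

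Some NORAD sites recurred to the base, without a count of shared ends over the whole lists beside them. A site began at nt 134 of the transcript in 5 libraries, all but FXR1, with widths of 20 nt in FXR2 and 24 nt in wild-type isoform 1 and of 61, 62 and 56 nt in the other 3 FMR1 libraries. A site at nt 3119 began at the same base in the same 5 libraries, on chromosome 20 up to 34635764, and was 27 to 30 nt wide. Sites that ended at nt 2674 were found in wild-type isoform 7, both I304N libraries and FXR2. The 3 regions marked as repeats, at nt 3651 to 3685, 3794 to 3826 and 3940 to 3982, had a site in both wild-type libraries, and the first 2 also in both I304N libraries. How reads that match several places were treated is not stated in the labels, and the part this has in the NORAD counts was not tested.

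Site numbers at the ends of NORAD were also counted, with limits chosen after the sites were seen, so that they are a description only. In the last 600 nt, from nt 4740, wild-type isoform 1 had 6 of its 34 sites (17.6%, 6.76 to 34.5), FXR1 3 of 3 and FXR2 3 of 7, and the other 3 FMR1 libraries had 1 each. Beyond nt 4840, where the last region of all 4 FMR1 libraries ended, wild-type isoform 1 had 5 of its 34 sites, FXR1 3 of 3 and FXR2 2 of 7, while wild-type isoform 7 (0 of 17, 0% to 19.5%), I304N isoform 1 (0 of 18, 0% to 18.5%) and I304N isoform 7 (0 of 22, 0% to 15.4%) had none. The wild-type isoform 1 share was 14.7% (4.95 to 31.1), so its interval overlaps those of the 3 lists without a site. Both regions there that held an FXR1 site, from 34633564 to 34633631 and from 34633977 to 34634021, were shared by wild-type isoform 1, FXR1 and FXR2. FXR1 and FXR2 had identical ends at 34633564 to 34633588 and at 34633991 to 34634010, without a count of identical ends over the whole lists beside them. Near the 5′ end, from nt 300 to 600, I304N isoform 7 had 4 sites, I304N isoform 1 had 3 and wild-type isoform 7 had 1, against 0 of 34 in wild-type isoform 1 (0% to 10.3%) and 0 in FXR1 and FXR2. As shares these were 18.2% (5.19 to 40.3) for I304N isoform 7 and 16.7% (3.58 to 41.4) for I304N isoform 1, whose intervals overlap that of wild-type isoform 1, so a difference was not resolved.

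The FXR2 sites on NORAD all fell on FMR1 sites. All 7 overlapped a site of wild-type isoform 1 (59.0% to 100%), beside 64.4% of its list, and 5 of 7 overlapped a site of each other FMR1 library (71.4%, 29.0 to 96.3). Over the whole FXR2 list, 32.1% of sites overlapped wild-type isoform 7, 46.2% overlapped isoform 1 with I304N and 34.8% isoform 7 with I304N. The intervals hold all these list shares, so with 7 sites a departure of FXR2 from its list is not resolved. The 3 FXR1 sites overlapped wild-type isoform 1 in 3 cases (29.2% to 100%) and the other FMR1 libraries in 0 (0% to 70.8%). Over the whole FXR1 list, 70.0% of sites overlapped wild-type isoform 1 and 21.2% wild-type isoform 7. For isoforms 1 and 7 with I304N it was 27.4% and 18.2%, so with 3 sites a departure from the list is not resolved. When sites wider than 40 nt were left out, FXR2 overlapped wild-type isoform 1 in 28.6% and FXR1 in 0% of sites. Most of these overlaps were thus with wide isoform 1 sites. Here too the list shares were not recomputed with this limit. Of the 34 wild-type isoform 1 sites on NORAD, 14 were wider than 40 nt.

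Windows elsewhere were ranked by how closely their profile over the 6 libraries followed that of each transcript. The measure was the distance between centred log2 scaled counts, among 1593 windows with at least 60 sites. NEAT1 and MALAT1, with 46 and 41 sites, lay below that minimum themselves, so windows with as few sites were not ranked. The chromosome X window from 112020001 to 112030000 fell below it, with 1, 32, 23, 0, 0 and 3 sites in the library order used above. Whether it is closer to NEAT1 was not computed. For NORAD the closest was on chromosome 14 from 71440001 to 71450000 (plus strand), at a distance of 0.304 with 21, 9, 12, 12, 2 and 4 sites in the library order used above, and the median distance was 2.49. The next was on chromosome 10 from 98750001 to 98760000 (plus strand), at 0.370. The closest to MALAT1 were on chromosome 4 from 1940001 to 1950000 (2.05) and on chromosome 19 from 34880001 to 34890000 (2.63), both on the plus strand, with a median of 4.87. For NEAT1 they were on chromosome 11 from 600001 to 610000 (plus strand), at 3.59, and on chromosome 16 from 23680001 to 23690000 (plus strand), at 3.85, with a median of 5.66. The first of these had 25 sites in wild-type isoform 7 but 23 in I304N isoform 1 and 4 in wild-type isoform 1, so its levels still differ from those of NEAT1. Genes under these windows, and the other genes planned for comparison, were not analysed here because no hg19 gene positions were at hand.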

How the data were processed

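Each of 6 PAR-CLIP libraries was deposited as a list of sites with chromosome, start, end, name, score and strand. The deposited score is a flag, per the file headers, 1000 outside repeats and 0 in a repeat, and not a height. The submitters' processing notes name Bowtie 0.12.7 and the build hg19. Which program called sites, with which thresholds and on how many reads, is not stated in the labels or file headers, so every value counts sites, and a weakly covered site weighs as much as a strongly covered one. Site numbers depend on sequencing depth, on RNA abundance and on the caller, which cannot be told apart from binding here.

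Sites were assigned by midpoint and strand, scaled to 100000 per list, and compared in 9 pairs of libraries. Windows of 10 kb with a mean of at least 2 scaled sites gave the background, with a pseudocount of 1. Shared sites overlap by at least 1 nt. Windows were named by a rule, the 2 closest profiles per transcript. The window and interval code was tested on simulated data. Python 3.11.15, pandas 2.3.3 and scipy 1.17.1 were used. The transcripts, lists and rules were chosen with earlier results of these data known. Motif counts used GENCODE 29 transcripts (GRCh38), without coordinates. Alternatives were other scalings, covered nucleotides in place of sites, repeats or mitochondrial sites left out, other windows, pseudocounts and filters, and stricter overlaps.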

Additional observations from a re-analysis of the deposited data

Results flagged for a closer look

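Several contrasts pointed in opposite directions in the 2 settings in which they were made, on the log2 scale with a pseudocount of 1. None of these differences was tested, since each protein form had 1 library. For NEAT1 the log2 ratio of I304N to wild type was 2.01 in isoform 1, from 4 against 0 sites, and -5.77 in isoform 7, from 0 against 42. Correspondingly, isoform 7 over isoform 1 was 5.77 in the wild type and -2.01 with I304N. For MALAT1, isoform 7 over isoform 1 was 1.34 in the wild type, from 24 against 14 sites, and -0.24 with I304N, from 1 against 2, which became 0.37 when covered nucleotides were counted, so that the opposition was lost. For NORAD, I304N over wild type was -0.98 in isoform 1 and 0.19 in isoform 7, and isoform 7 over isoform 1 was -0.35 in the wild type (0.22 with median-of-ratios scaling) and 0.82 with I304N. The values with I304N for NEAT1 and MALAT1 rest on 4 sites or fewer.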

How the results depend on the processing

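With 1 library per group, leaving out a replicate was not possible. No paired analysis was possible because no group has 2 libraries. The 72 recomputed scaled counts (any overlap with the span, repeats or mitochondrial sites left out, covered nucleotides) all stayed within the counting interval of the reported value, as did the 12 recomputed NORAD shares. Counts of 0 among them stayed 0 and, outside the any-overlap setting, could not move. The NORAD shares of FXR1 and FXR2, at 100%, could not move either. Of 81 recomputed log2 ratios, 12 compare 0 with 0 sites and could not move. Of the other 69, 67 kept their side of 2-fold, and 6, all within 2-fold, changed sign. The exceptions were NORAD in isoform 1 with I304N, which passed 2-fold with covered nucleotides (-1.30) and without repeats (-1.05). With a pseudocount of 5 the share of windows past 2-fold was 10.4% lower for I304N in isoform 1, 6.47% lower for I304N in isoform 7, 7.06% higher for wild-type isoform 7 over isoform 1 and 10.1% lower for FXR2 against wild-type isoform 1. Without a filter it was 10.6%, 41.9% and 40.8% for the first 3 of these and 61.3% for FXR2 against wild-type isoform 7. With median-of-ratios scaling it was 9.65% lower for I304N in isoform 1, 37.5% higher for wild-type isoform 7 over isoform 1 and 41.9% lower for FXR2 against wild-type isoform 7. Of windows with at least 10 sites in wild-type isoform 7, 0.791% had 0 in wild-type isoform 1 and 2.74% at most 1 in I304N isoform 7. Windows of 50 kb gave 0.117% for the first, and a minimum of 40 sites gave 0% for the second; these minimums were chosen after seeing the data. Of 90 recomputed NORAD overlaps, 84 stayed within their interval. With sites of at most 40 nt, wild-type isoform 1 was met by 28.6% of FXR2 sites and 0% of FXR1 sites. Depth limits FXR1 most: 0 sites there allow 33.3 per 100000.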
